A study of Homo sapiens with 12 samples.

Results

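The genes described here are STOML2 and 9 partners of the mitochondrial inner membrane: the prohibitins PHB and PHB2, the fusion GTPase OPA1, the proteases YME1L1, PARL, AFG3L2 and SPG7, and the cristae scaffold genes IMMT and CHCHD3. They were taken by symbol from a deposited table of 10465 gene rows, in which all 10 stood once. STOML2 was chosen because its level was higher with glucose than with BSA in these same libraries, and the partners were chosen by function to stand beside it. The difference between those groups is therefore given for the 10 genes as a description, without a test.

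HL-60 is an established human line of promyelocytic leukaemia, here induced to neutrophils, and RNA was measured by sequencing after 24 h of stimulation. A control group received BSA, bovine serum albumin, at 0.05 µg/mL. The other groups received AGEs at 0.05 µg/mL, the usual abbreviation of advanced glycation end products, D-glucose at 30 mmol/L, or both agents at these doses. Each group had 3 libraries, numbered 1 to 3. All came from 1 cell line, the inducing agent is not given in the labels, and BSA is listed for the control group alone. An agent and the absence of listed BSA therefore cannot be told apart where a group is set against the control. The same holds for any difference that contains such a comparison. Whether replicate libraries were grown as independent cultures is not labelled, and p-values cover just the spread among them, possibly a technical one.

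Cristae are the folds of the mitochondrial inner membrane that hold the respiratory chain. STOML2 (stomatin-like protein 2) and the prohibitins belong to the stomatin, prohibitin and flotillin (SPFH) superfamily, whose members form large ring-like or scaffold assemblies in membranes. STOML2 and the prohibitins have been linked to cardiolipin, the signature lipid of the inner membrane. STOML2 is known to gather PARL and YME1L1 into a proteolytic hub and to associate with the prohibitins, while OPA1, which fuses inner membranes, is cut by YME1L1 and by the stress protease OMA1, and AFG3L2 with SPG7 builds the matrix-facing m-AAA protease.

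FPKM corrects for gene length as well as library size, so levels can be compared between genes as far as reads are not shared with other loci. How shared reads were counted is not known, and PHB has 21 named pseudogenes against 1 for PHB2, which limits their ratio. The 12 libraries summed to 220444 to 233854 FPKM, and their read depth is unknown. AGEs library 1 and glucose library 3 stood somewhat apart, with limma library weights of 0.181 and 0.418 against 0.797 to 1.82 in the other 10. Of 9 neutrophil markers 8 were measured, and their summed level was 775 to 782 FPKM with BSA, 739 to 744 with AGEs, 686 to 711 with glucose and 723 to 741 with both. The integrin subunit ITGB2 stood at 195 ± 0.806 FPKM with BSA (SD, n = 3), CEACAM8, a marker of granulocyte precursors, lay between 0.697 and 1.42 FPKM in the 12 libraries, and FCGR3B was not analysed here. Promyelocyte markers, of which 4 of 5 were measured, summed to 105 to 117 FPKM with BSA, 110 to 137 with AGEs, 92.5 to 94.3 with glucose and 127 to 130 with both, nearly all of it MPO. The 5 proliferation markers summed to 170 to 174, 160 to 187, 183 to 186 and 172 to 188 FPKM in the same order. Eosinophil and basophil markers, 4 of 6 measured, summed to 2180 to 2450, 2420 to 2580, 2370 to 2610 and 2680 to 2760 FPKM, and the 1 monocyte marker of 5 that was measured, CSF1R, stood at 8.77 to 10.8, 8.45 to 10.8, 6.23 to 7.12 and 8.17 to 8.39. The neutrophil and promyelocyte sums and CSF1R were thus lowest in the glucose libraries, where STOML2 was highest. The proliferation sum there was above that with BSA, and the part of these values in the STOML2 level was not tested. Sums follow the abundant genes, above all CYBB and ITGB2 among the neutrophil markers. The eosinophil and basophil sum was nearly all CLC, at 2200 FPKM on average with BSA, 2360 with AGEs, 2360 with glucose and 2540 with both. For glucose against BSA 6 of 8 neutrophil markers were lower, and 2, FPR1 and CEACAM8, were higher. Of the 2 promyelocyte markers tested MPO was lower and PRTN3 slightly higher, and of the 5 proliferation markers 1, MKI67, was lower. In bulk samples fewer cells of a type and less RNA per cell cannot be told apart.

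The 3 SPFH-family members of the group, STOML2, PHB and PHB2, are shown with the 250 bases before their annotated starts, because their proteins associate. Capitals mark the letters CCGGAAGT, the core bound by ETS factors such as GABPA, read on both strands, and the sequences and coordinates are those of RefSeq on GRCh38.p14, all on the minus strand and written 5′ to 3′.
STOML2, chr9:35103196-35103445: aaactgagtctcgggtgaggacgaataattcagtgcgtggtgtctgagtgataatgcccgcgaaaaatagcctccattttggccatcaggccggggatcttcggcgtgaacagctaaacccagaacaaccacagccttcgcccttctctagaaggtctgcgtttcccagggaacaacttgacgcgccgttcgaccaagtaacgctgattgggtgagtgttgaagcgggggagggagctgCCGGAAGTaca
PHB, chr17:49414883-49415132: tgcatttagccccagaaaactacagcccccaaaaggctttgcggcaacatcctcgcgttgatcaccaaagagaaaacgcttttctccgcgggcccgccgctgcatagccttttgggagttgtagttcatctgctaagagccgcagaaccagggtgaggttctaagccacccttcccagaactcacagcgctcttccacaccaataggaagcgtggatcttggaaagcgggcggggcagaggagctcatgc
PHB2, chr12:6970754-6971003: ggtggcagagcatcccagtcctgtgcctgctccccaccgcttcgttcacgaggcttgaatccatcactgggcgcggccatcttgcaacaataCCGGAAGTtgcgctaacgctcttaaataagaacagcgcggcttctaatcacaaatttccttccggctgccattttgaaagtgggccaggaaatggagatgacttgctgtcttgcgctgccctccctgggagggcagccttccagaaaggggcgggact

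The core began 11 bases before the start of STOML2 and 158 bases before that of PHB2, and was not found in the window of PHB. Windows were found for 9 of the 10 genes, and PARL also held the core, 29 bases before its start. The ETS core stood in 3.69% of 24885 windows of the same length. The letters GCATGCGC, the core of the NRF1 motif, were found in OPA1 as a pair of overlapping matches 92 and 94 bases before its start, and in 2.86% of windows. None of the 9 windows held AAGATGGCG (YY1), the E-box CACGTG or GAANNTTC, a pair of facing heat shock half-sites. These stood in 0.651%, 6.44% and 5.91% of windows. Each motif was searched in the letters given, so near matches and other spellings were not counted. On the opposite strand, the PHB2 window held the letters searched for YY1 in all but the last place. Motifs were chosen with these sequences in view, and a match is a description of letters, not of binding.

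STOML2 stood at 28.0, 25.4 and 23.4 FPKM in BSA libraries 1, 2 and 3, and at 39.1, 38.6 and 40.0 FPKM in the glucose libraries. With AGEs alone it stood at 32.7, 29.7 and 36.5 FPKM, and with both agents at 29, 30.1 and 31 FPKM. The glucose libraries were the highest of the 12 and the BSA libraries the lowest, with no overlap between either of these groups and any other. The order of the group means was BSA at 25.6 ± 2.31, both agents at 30.0 ± 1.0, AGEs at 33.0 ± 3.44 and glucose at 39.3 ± 0.700 FPKM (SD, n = 3). Neighbours in this order overlapped in the case of both agents and AGEs, and did not overlap between BSA and both agents or between AGEs and glucose.

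**Figure D1:**
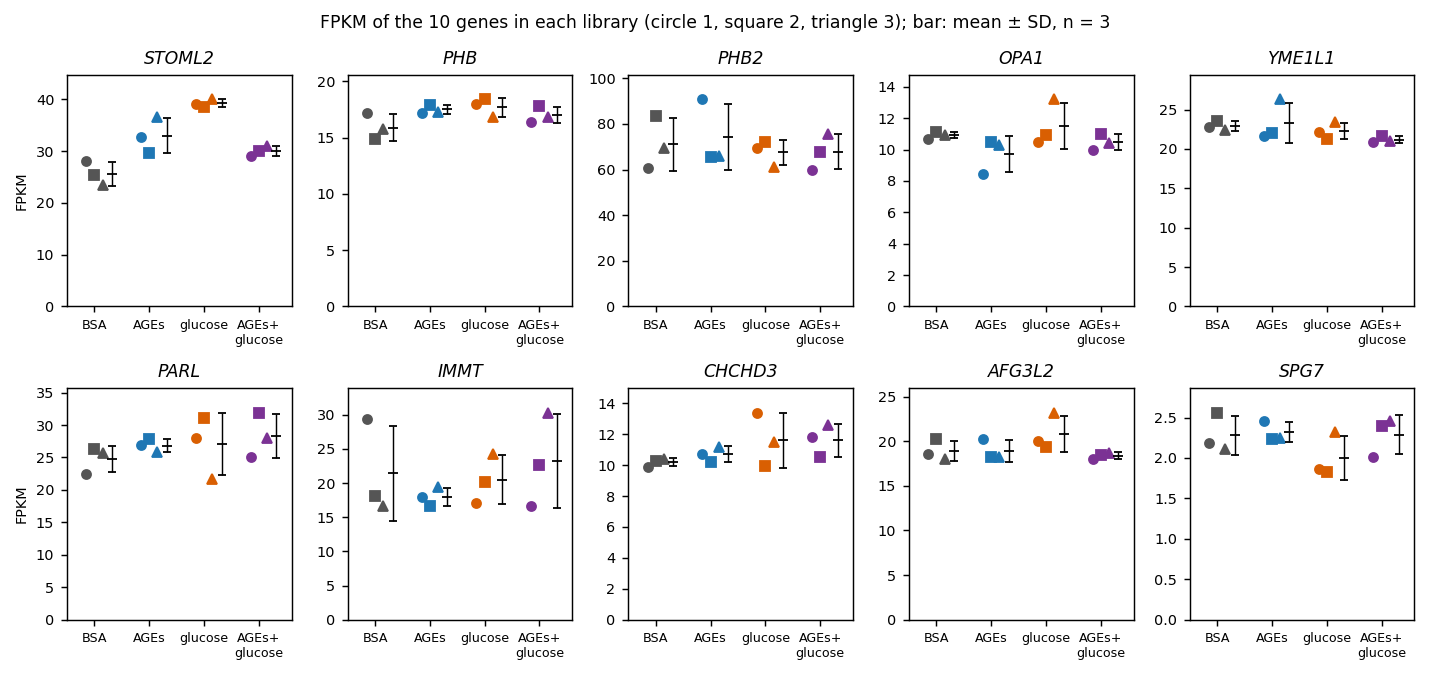
FPKM of the 10 genes in each of the 12 libraries, by group, with a panel for each gene and each axis starting at 0; circles, squares and triangles are libraries 1, 2 and 3, and bars give the mean ± SD (n = 3). STOML2 is between 38.6 and 40.0 FPKM in the glucose libraries and between 23.4 and 28.0 FPKM with BSA, while the groups of the partners mostly overlap.

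The label of the group, that STOML2 was higher with glucose, held against BSA and was not seen where AGEs were present. Against BSA the difference was 0.60 ± 0.08 SE on the log2(FPKM + 1) scale, a fold of 1.52, which chose the gene and is not tested here. In the libraries that this difference did not use, AGEs with glucose against AGEs alone, the log2 fold change was -0.13 ± 0.08 SE, with limma's adjusted p = 0.984. Its 95% interval, not adjusted for the number of genes, ran from -0.31 to 0.06. AGEs libraries 1 and 3 were above all 3 libraries with both agents, and AGEs library 2 lay within them. Without AGEs library 3 this fold change was -0.05, and without AGEs library 2 it was -0.20.

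AGEs alone also had a higher STOML2 level than BSA, by 0.35 ± 0.08 SE on the log2 scale, a fold of 1.28, and the groups did not overlap. Added to glucose, AGEs went with a lower STOML2 level, by -0.38 ± 0.08 SE or a fold of 0.77, again without overlap. STOML2 was chosen for low BSA and high glucose values, and those libraries form an arm of these comparisons, so the choice favours both directions and the differences are given without a test. Either agent alone therefore came with a higher level than BSA in 3 of 3 libraries, and both together with a level below each single agent's mean. The glucose difference with AGEs minus that without AGEs was -0.73 ± 0.12 SE. It contains the difference that chose the gene and is likewise given without a test.

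The prohibitins PHB and PHB2 are paralogs that alternate in a ring complex and are stable as proteins only together. PHB stood at 17.2, 14.9 and 15.8 FPKM with BSA, 17.2, 17.9 and 17.3 with AGEs, 18.0, 18.4 and 16.8 with glucose and 16.4, 17.8 and 16.8 with both agents. PHB was the steadiest of the 10 genes, with a within-group SD of 0.0671 on the log2 scale, lower than in all but 7.65% of the genes tested. Its group means stood in the same order as those of STOML2, at 15.9 FPKM with BSA, 17.0 with both agents, 17.5 with AGEs and 17.7 with glucose. Its groups overlapped for glucose against BSA, while with AGEs it was above BSA in 3 of 3 libraries. That separation was narrow, as AGEs library 1 stood at 4.189 and BSA library 1 at 4.184 on the log2(FPKM + 1) scale. The log2 difference from BSA was 0.15 ± 0.07 SE with glucose and 0.13 ± 0.07 SE with AGEs, the second not called (adjusted p = 0.977 by limma).

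PHB2 was the most abundant member, at 60.7, 83.4 and 69.3 FPKM with BSA and 90.8, 65.7 and 66.1 with AGEs. It stood at 69.4, 71.9 and 61.3 FPKM with glucose and 60.0, 67.9 and 75.7 with both agents. All 4 groups overlapped one another, and the log2 difference from BSA with glucose was -0.06 ± 0.15 SE (95% interval -0.39 to 0.26). With glucose added to AGEs it was -0.12 ± 0.15 SE, and 0.04 without AGEs library 1, the library with the lowest weight and the highest PHB2 level. PHB2 exceeded PHB 3.53 to 5.60 times in FPKM over the 12 libraries, and this ratio did not separate the groups.

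Relative to either prohibitin, STOML2 was highest on average in the glucose group. Its ratio to PHB in FPKM was 1.48 to 1.71 with BSA, 1.66 to 2.11 with AGEs, 2.10 to 2.39 with glucose and 1.69 to 1.84 with both. Its ratio to PHB2 was 0.305 to 0.462 with BSA, 0.360 to 0.553 with AGEs, 0.538 to 0.653 with glucose and 0.410 to 0.483 with both. The glucose range lay above the BSA range and above the range with both agents in either ratio, and overlapped that of AGEs in both. Because STOML2 was chosen for its rise against BSA, this lead over its partners in the glucose libraries follows in part from the choice.

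The hub proteases had close group means. YME1L1, the i-AAA protease that faces the space between the membranes, stood at 22.9 ± 0.602 FPKM with BSA, 23.3 ± 2.55 with AGEs, 22.3 ± 1.03 with glucose and 21.2 ± 0.426 with both. PARL, the rhomboid protease that cuts PINK1 and PGAM5 within the membrane, stood at 24.8 ± 2.03, 26.8 ± 0.977, 27.0 ± 4.78 and 28.3 ± 3.41 FPKM in the same order (SD, n = 3). PARL ran from 21.7 to 31.1 FPKM within the glucose group alone, a wider range than between any of its group means. With glucose added to AGEs the log2 fold change was -0.13 ± 0.08 SE for YME1L1 and 0.07 ± 0.12 SE for PARL (limma's adjusted p = 0.984 for each). STOML2 and YME1L1 were about level with BSA, at a FPKM ratio of 1.05 to 1.23. STOML2 was 1.35 to 1.51 times YME1L1 with AGEs, 1.71 to 1.81 times with glucose and 1.39 to 1.48 times with both. The ratio of STOML2 to PARL separated the groups less. It was 0.909 to 1.24 with BSA, 1.07 to 1.42 with AGEs, 1.24 to 1.84 with glucose and 0.944 to 1.16 with both. Its glucose range thus met that of BSA and overlapped that of AGEs.

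OPA1, the dynamin-related GTPase of inner membrane fusion, stood at 10.7, 11.1 and 10.9 FPKM with BSA and at 8.42, 10.5 and 10.3 with AGEs. It stood at 10.5, 10.9 and 13.2 FPKM with glucose and at 9.99, 11 and 10.4 with both agents. The AGEs libraries were all below those with BSA, by a log2 fold change of -0.15 ± 0.10 SE that was not called (adjusted p = 0.977 by limma), and the other groups overlapped BSA. The extreme values came from AGEs library 1 and glucose library 3, the libraries with the lowest weights.

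The m-AAA protease subunits differed widely in level. AFG3L2, which can form the protease alone, stood at 18.6, 20.2 and 18.0 FPKM with BSA, 20.3, 18.2 and 18.2 with AGEs, 20.0, 19.3 and 23.2 with glucose and 18.0, 18.5 and 18.7 with both. SPG7 (paraplegin), which needs AFG3L2 to assemble, stood at 2.18, 2.56 and 2.11 FPKM with BSA, 2.46, 2.24 and 2.25 with AGEs, 1.86, 1.83 and 2.32 with glucose and 2.01, 2.40 and 2.46 with both. The glucose libraries thus held the 2 lowest SPG7 values of the 12 and, in library 3, the highest AFG3L2 value. AFG3L2 was lower with both agents than with glucose in 3 of 3 libraries, by a log2 fold change of -0.17 ± 0.08 SE that was not called (adjusted p = 0.815 by limma). The ratio of AFG3L2 to SPG7 in FPKM was 10.0 to 10.8 with glucose against 7.60 to 8.94 in the 9 other libraries, with no overlap. This ratio was picked after the values were seen and contains a contrast that was used for the choice, so it is given without a test.

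**Figure D2:**
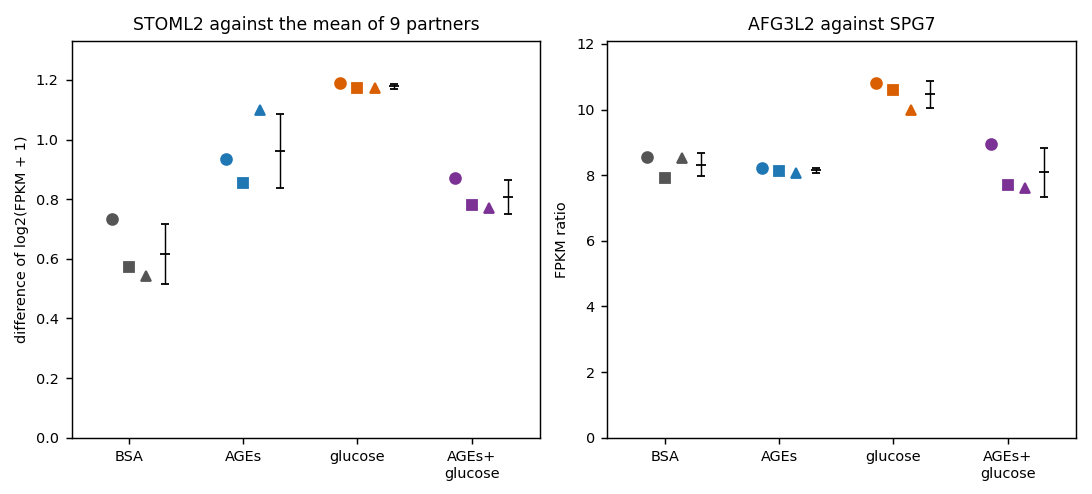
Left, STOML2 minus the mean of its 9 partners on the log2(FPKM + 1) scale in each library; right, the FPKM ratio of AFG3L2 to SPG7; both axes start at 0, symbols are libraries 1 (circle), 2 (square) and 3 (triangle), and bars give the mean ± SD (n = 3). The glucose libraries are highest in both panels, at 1.17 to 1.19 on the left and 10.0 to 10.8 on the right.

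The cristae scaffold genes IMMT and CHCHD3 code for subunits of MICOS, the complex that holds cristae junctions. IMMT stood at 29.4, 18.1 and 16.7 FPKM with BSA, 18.0, 16.7 and 19.4 with AGEs, 17.1, 20.1 and 24.3 with glucose and 16.6, 22.7 and 30.3 with both. IMMT was the least reproducible of the 10 genes, with a within-group SD of 0.324 on the log2 scale, larger than in about 92.3% of the genes tested, and single libraries in the BSA group and in the group with both agents reached nearly the same maximum. Its log2 fold change with glucose added to AGEs was 0.31 ± 0.23 SE with a 95% interval of -0.21 to 0.83, an interval that holds both lower and higher levels. CHCHD3 was far steadier, at 9.86 to 10.4 FPKM with BSA, 10.2 to 11.2 with AGEs, 9.96 to 13.4 with glucose and 10.5 to 12.6 with both. IMMT exceeded CHCHD3 between 1.27 and 2.98 times, and the ratio moved as much within groups as between them.

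Over the 9 partners, glucose against BSA gave log2 differences from -0.13 for SPG7 to 0.17 for CHCHD3, with a median of 0.07 against 0.00 for all 9751 genes tested, and 5 of 9 above 0. Their 95% intervals reached at most 0.49, for IMMT, and that of STOML2 ran from 0.42 to 0.78. Of all genes limma called 0.103% in this comparison, and 17% had groups that did not overlap. STOML2, chosen by this difference, was the 1 of the 10 with separated groups, from which nothing is read. With glucose added to AGEs the partners ran from -0.13 for YME1L1 to 0.31 for IMMT, with a median of -0.01 and 4 of 9 above 0. There limma called 0 of the 10 genes, and 0 had an unadjusted p under 0.05, against 0.0103% called and 3.72% under an unadjusted 0.05 of all genes. None of the 10 had separated groups in that comparison, against 8.82% of all genes.

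**Figure D3:**
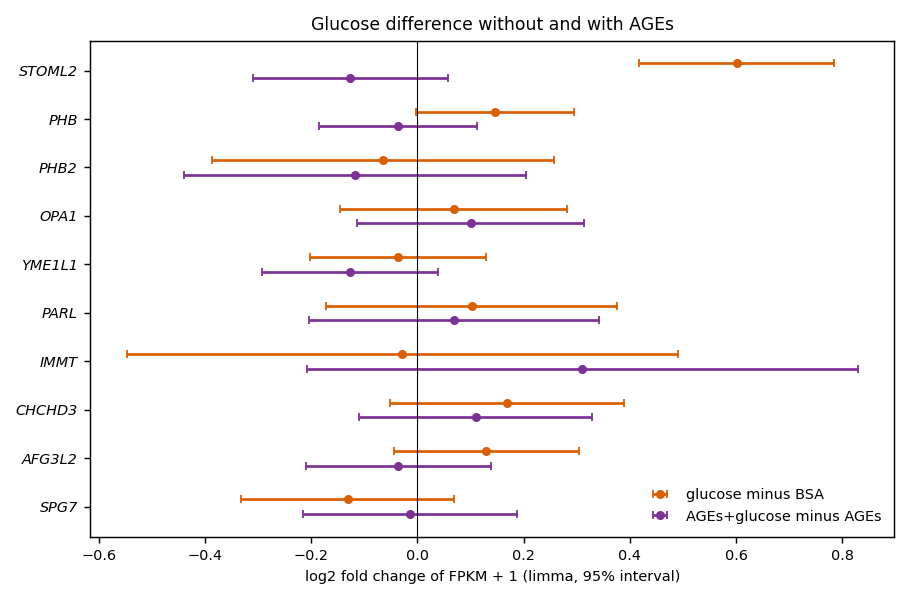
Log2 fold change of FPKM + 1 (horizontal axis) for each of the 10 genes, for glucose minus BSA (orange) and AGEs with glucose minus AGEs (purple); points are limma estimates and lines their 95% intervals, not adjusted for the number of genes. STOML2 lies at 0.60 for glucose minus BSA, the contrast that chose it, and at -0.13 where AGEs are present.

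For AGEs against BSA limma called 0 of the 9 partners against 0.0308% of all genes, and 0 had an unadjusted p under 0.05 against 4.74% of all genes. Groups did not overlap for 3 of the 10, STOML2 and PHB higher against 4.82% of all genes and OPA1 lower against 3.98%, with 8.80% in either direction. For AGEs added to glucose limma again called 0 of the 9 partners against 0.0308%, and 0 had an unadjusted p under 0.05 against 6.05%. Groups there did not overlap for STOML2 and AFG3L2, both lower, against 7.86% of all genes in that direction and 15.5% in either. For STOML2 both separations rest on libraries that chose it. In each library the excess of STOML2 over the mean of its partners, on the log2(FPKM + 1) scale, was 0.73, 0.57 and 0.54 with BSA and 0.93, 0.85 and 1.10 with AGEs. It was 1.19, 1.17 and 1.17 with glucose and 0.87, 0.78 and 0.77 with both agents. The 3 glucose libraries were the highest of the 12 by this measure too, and BSA library 1 was below all AGEs and all libraries with both agents.

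Across the 12 libraries the partners followed STOML2 to different degrees. Pearson's r with STOML2 on the log2 scale was 0.66 for PHB (Spearman's rho 0.58), 0.52 for AFG3L2 (0.57) and 0.42 for CHCHD3 (0.46), and between -0.35 and 0.15 for the other 6. Without glucose library 3 and BSA library 3, the farthest from the median of STOML2, r was 0.72 for PHB and 0.145 for AFG3L2, so that the relation of AFG3L2 rested on those libraries. The r of SPG7 went from -0.35 to -0.64 without them. With group means removed the order was another, with r = 0.68 for IMMT, 0.64 for YME1L1, 0.23 for SPG7, 0.19 for AFG3L2, 0.17 for CHCHD3, 0.14 for PHB, 0.05 for OPA1, -0.12 for PHB2 and -0.33 for PARL. PHB ranked 97 of 5950 genes with a mean of at least 5 FPKM. The genes highest in this ranking were NOP56, a core protein of small nucleolar particles (r = 0.91, rho 0.80), WDR77, the partner of the arginine methyltransferase PRMT5 (0.87, 0.90), POLR1B, a subunit of RNA polymerase I (0.86, 0.85), ANAPC1, the scaffold of the anaphase-promoting complex (0.85, 0.88), and TSR1, a maturation factor of the small ribosomal subunit (0.85, 0.84). At the other end stood FCGR2B, the inhibitory Fc receptor (-0.89, -0.89), ARID3A, a DNA-binding protein (-0.83, -0.79), and TXNIP, the glucose-responsive arrestin (-0.82, -0.78). The libraries share groups, and within groups r was 0.47 for NOP56, 0.26 for WDR77, 0.22 for POLR1B, 0.76 for ANAPC1 and 0.27 for TSR1, and -0.27 to -0.15 for the last 3. NOP56 stood at 19.1 ± 0.544 FPKM with BSA, 20.5 ± 0.357 with AGEs, 23.1 ± 0.259 with glucose and 20.9 ± 0.255 with both (SD, n = 3).

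Other genes were read from lists written with earlier results of these data known. They cover both mitochondrial membranes, the matrix and SPFH relatives of STOML2 such as STOM of the plasma membrane. Limma called 0 genes of these 10 lists in either glucose comparison. Of their 88 genes tested, 12 (13.6%) had an unadjusted p under 0.05 for glucose against BSA, where 10% of all genes did, and 3 (3.41%) with glucose added to AGEs, where 3.72% of all genes did. Log2 differences were above 0 for 75% of the 88 against BSA and 58% with AGEs, and for 49.6% and 50.4% of all genes. Genes of MICOS and its bridge to the outer membrane, 9 measured, were all above 0 for glucose against BSA, with a median log2 difference of 0.08. The 1 gene of the 9 at an unadjusted p under 0.05, a share near the 10% of all genes, was SAMM50, the outer membrane insertase core, at 16.4 ± 0.335 FPKM in BSA and 17.9 ± 0.527 in glucose libraries. With glucose added to AGEs 5 of the 9 were above 0, with a median of 0.03. Other proteases and peptidases were above 0 in 8 of 12 against BSA and in 6 of 12 with AGEs, with medians of 0.13 and 0.025. PMPCA, a subunit of the matrix processing peptidase, was 7.65 ± 0.431 FPKM in BSA and 9.09 ± 0.768 in glucose libraries, and MIPEP, the intermediate peptidase, at 1.83 ± 0.164 with AGEs and 1.42 ± 0.224 with both (SD, n = 3).

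The inner membrane import genes had the highest median among the mitochondrial lists of more than 3 genes for glucose against BSA. Of 17 measured genes 15 were above 0 for glucose against BSA, with a median log2 difference of 0.21. An unadjusted p under 0.05 was reached by 5 of the 17 there, beside 10% of all genes. The chaperones, 3 genes, had a median of 0.35, and the eosinophil and basophil markers, 4 genes tested, one of 0.29. Of the import genes 12 of 17 were above 0 with glucose added to AGEs, with a median of 0.07 and 0 at that p. PAM16, which regulates the import motor, was 5.99 ± 1.03 FPKM in BSA and 7.77 ± 0.898 in glucose libraries, and TIMM17A, a channel subunit, at 12.7 ± 1.31 and 16.6 ± 1.74. PAM16 was at 7.71 ± 0.773 and TIMM17A at 15.4 ± 2.98 with AGEs alone, near their glucose levels. The matrix chaperone HSPD1 was 79.2, 82.8 and 85.0 FPKM in BSA and 105, 95.2 and 116 in glucose libraries, without overlap, and its co-chaperonin HSPE1 at 24.4 ± 3.02 and 35.9 ± 6.23 (SD, n = 3). Neither was called over all genes tested (limma's adjusted p = 0.311 and 0.407). With glucose added to AGEs HSPD1 went from 88.7 ± 12 to 90.5 ± 8.50 FPKM, with overlap.

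Fusion and fission genes had medians of 0.06 against BSA and 0.03 with AGEs over 10 genes tested, since MIEF2 did not pass the filter on low values. The fission-linked gene MTFP1 stood at 8.05 ± 1.86 FPKM with AGEs and 11.9 ± 3.11 with both. The 5 measured relatives of STOML2 in the SPFH superfamily had medians of -0.02 and -0.06, and its namesake STOM, stomatin of the plasma membrane, stood at 13.5 ± 2.72 with BSA, 15.9 ± 1.16 with AGEs, 16.9 ± 0.278 with glucose and 13.3 ± 3.57 with both. Cardiolipin synthesis and lipid transfer genes had medians of 0.08 and 0.06 over 9 genes, with PRELID1, a carrier of phosphatidic acid, at 53.0 ± 15.2 FPKM in BSA and 65.1 ± 5.33 in glucose libraries. Calcium uniporter genes had medians of 0.06 and -0.03 over 7 genes. SMDT1, the uniporter subunit processed by the m-AAA protease, stood at 15.5 ± 2.58 with BSA and at 20.8 ± 3.12, 20.4 ± 3.24 and 20.8 ± 1.77 FPKM with AGEs, glucose and both (SD, n = 3).

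TTC19 codes for a complex III factor and was listed among substrates and partners of the member proteases. It had the widest difference of the genes in these mitochondrial lists with glucose added to AGEs. It stood at 3.28, 2.87 and 3.56 FPKM with AGEs and 6, 6.72 and 6.34 with both agents, and at 3.37, 3.5 and 3.25 with BSA and 3.81, 3.47 and 7.99 with glucose. All 3 libraries with both agents and glucose library 3 stood well above the other 8. The log2 fold change with glucose added to AGEs was 0.80 ± 0.21 SE and was not called (limma's adjusted p = 0.984, unadjusted p = 0.00275). The other 6 substrates and partners of these proteases, such as PINK1 at 2.70 ± 0.399 with AGEs and 2.31 ± 0.247 with both, had log2 fold changes of smaller size there, and the medians of the 7 were 0.11 against BSA and 0.03 with AGEs. Markers of mitochondrial content, the import receptors, VDAC channels and matrix proteins, had a median log2 difference of 0.15 for glucose against BSA and 0.02 with AGEs over 9 genes. Against BSA 7 were above 0 and 2 below. The widest difference there, -0.68, was that of the matrix protein CS, at 28.1 ± 15.9 FPKM with BSA and 16.7 ± 11.3 with glucose (SD, n = 3). CS ran from 9.72 to 38 FPKM within the BSA group and from 9.82 to 29.7 within the glucose group. TOMM70, an import receptor, was the member with the smallest p against BSA, at 15.7 and 17.6 FPKM on average, and VDAC2 with AGEs, at 32.8 and 26.6.

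**Figure D4:**
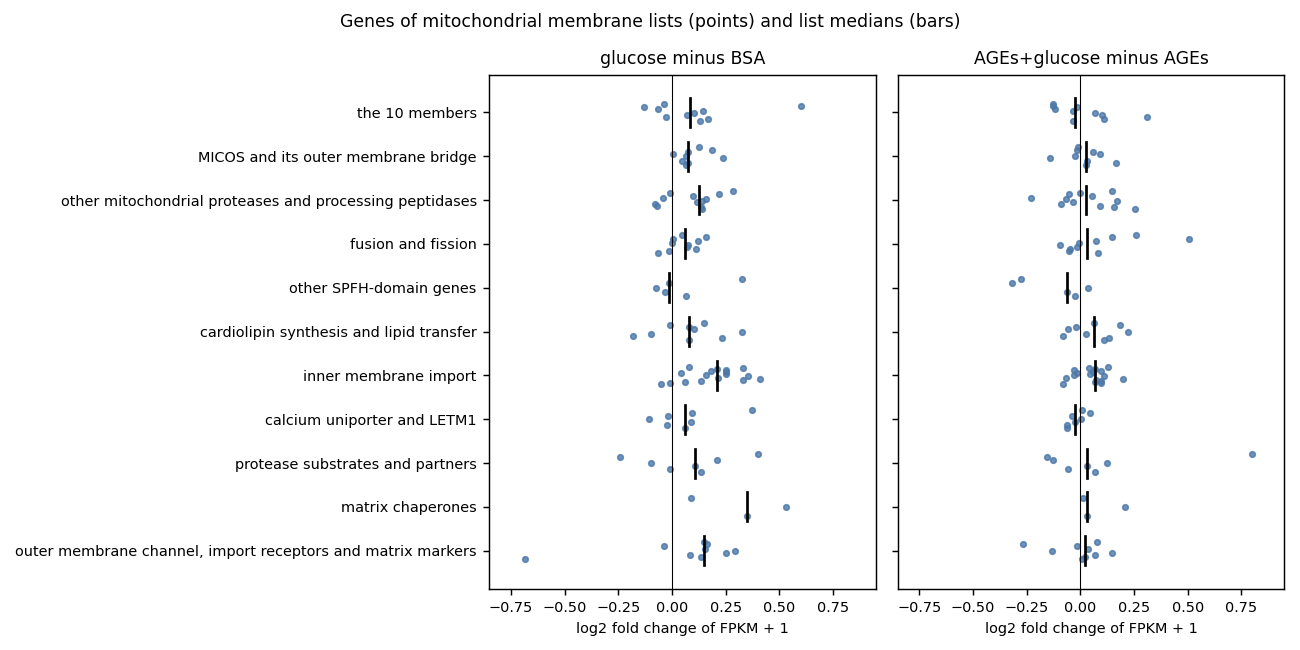
Log2 fold change of FPKM + 1 for each tested gene (points), for glucose minus BSA (left) and AGEs with glucose minus AGEs (right). Genes are the 10 members and those of 10 lists, of mitochondrial genes and of SPFH relatives of STOML2, and vertical bars are list medians. The import list has a median of 0.21 on the left and 0.07 on the right, and the point at 0.60 on the left is STOML2.

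Several members have sequence neighbours that could share reads. In a GENCODE v29 annotation of GRCh38, STOML2 overlapped no other gene, while YME1L1 overlapped MASTL and AFG3L2 overlapped TUBB6 on the opposite strand, and PARL overlapped the coding gene AC131160.1 on its own strand. Pseudogenes named after a member numbered 21 for PHB, 3 for CHCHD3 and 1 each for PHB2, YME1L1, IMMT and AFG3L2, and 0 of these were in the deposited table. How the authors' counting treated such reads is not given in the sources used here, so the levels of these genes are uncertain to that extent.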

How the data were processed

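The deposited table gives gene-level FPKM values in 1 column per library, per the file headers. Named in the submitters' processing notes, with no role or order, are STAR 2.5.2b, HISAT2 2.0.5, StringTie, cutadapt and the build hg19, while annotation, strand setting and filters are not stated in any source used here. In each of the 10465 rows the highest group mean is at least 0.5001 FPKM, and 19 symbols stand in 2 rows. FPKM keeps no counts, so no counting intervals were computed.

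Rows with at least 1 FPKM in at least 3 libraries were kept (9751 genes, all 10 members included, with 714 rows removed) and analysed as log2(FPKM + 1), which understates the change of low genes. Group means over the 12 libraries were fitted together by limma 3.58.1 (R 4.3.3), with trend and robust moderation and Benjamini-Hochberg adjustment over all genes tested, threshold 0.05. Listed symbols not in the table were matched through RefSeq synonyms held by 1 gene alone, and 15 of 136 entries were not analysed here. The members and lists were chosen with earlier results of these data known. Named genes were the members, up to 3 per list with the smallest unadjusted p in each glucose comparison, of which the text gives some, and the 5 highest and 3 lowest in Pearson's r with STOML2. ITGB2, CYBB, FPR1, CEACAM8, MPO, PRTN3, MKI67, CLC and CS were named after their values were seen. The fit was tested on simulated data for the 9751 genes, with 100 genes changed at each size. Noise was normal, independent and of equal quality in all libraries, with the SD observed for each gene. A log2 change of 0.5 was recovered for 58% of changed genes in the glucose comparison and 55% with AGEs. A change of 1 was recovered for 93% and 91%, with 9 and 14 false calls over both sizes. The real libraries differed in weight, so these shares need not hold for them. Alternatives were another pseudocount, other filters, TMM and quantile scaling, library weights, fits of fewer groups, a replicate block and each library left out.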

Additional observations from a re-analysis of the deposited data

Results flagged for a closer look

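STOML2 was noted because its level with AGEs was above that with BSA in all 3 libraries, at 29.7 to 36.5 against 23.4 to 28.0 FPKM. With AGEs added to glucose it was below that with glucose alone in all 3, at 29 to 31 against 38.6 to 40.0 FPKM. The difference between the glucose effects with and without AGEs was -0.73 on the log2 scale. It was not tested here, because it contains the difference that chose the gene.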

How the results depend on the processing

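In 9 alternative settings that kept all libraries, the log2 difference of STOML2 stayed between 0.57 and 0.62 for glucose against BSA, -0.15 and -0.12 for glucose added to AGEs, 0.33 and 0.36 for AGEs and -0.39 and -0.37 for AGEs added to glucose. With each library left out in turn the ranges were 0.54 to 0.67, -0.20 to -0.05 (adjusted p 0.734 to 1), 0.28 to 0.42 and -0.40 to -0.35. For glucose added to AGEs, library weights turned the sign of AFG3L2 (0.0034), PHB2 (0.0031) and SPG7 (0.0086). The ranges with 1 library left out were -0.0609 to 0.0136 for AFG3L2, -0.198 to 0.0354 for PHB2, -0.0514 to 0.0479 for SPG7 and -0.0168 to 0.151 for PARL. Partner signs for glucose against BSA also depended on single libraries. The ranges there were -0.178 to 0.214 for IMMT, -0.172 to 0.0545 for PHB2, -0.0235 to 0.128 for OPA1 and -0.0053 to 0.244 for PARL. The causes were not tested.

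The counts of all genes called were less stable. For glucose against BSA 10 calls became 5 in a fit of the groups compared, 127 with library weights and 2 with the replicate block, and 3 without BSA 2, glucose 1 or AGEs+glucose 1 or 3, 5 without AGEs+glucose 2, 6 without BSA 1, glucose 2 or glucose 3, and 16 without AGEs 1. For AGEs 3 calls became 7 and 10 under the first of these settings and with weights, and 2 to 6 with 1 library left out (6 without AGEs 1). For AGEs added to glucose 3 became 5, 27 and, with the block, 0, and 0 to 7 with 1 library left out (0 without glucose 3, 7 without AGEs 1). For glucose added to AGEs 1 became 2 with no filter and with weights, and 1 to 4 with 1 library left out (4 without AGEs+glucose 1). For the difference between the glucose effects 1 became 3 with no filter, 2 with a mean of at least 5 FPKM or TMM scaling and 14 with weights, and 0 to 4 with 1 library left out. Same-numbered libraries did not deviate together (r -0.214 to 0.128 over 18 pairs, against -0.207 to 0.194 over 36 pairs of different numbers). Such values cannot show whether same-numbered libraries were handled together, which is not labelled, and the main fit used no pairing. The block left STOML2 uncalled for glucose added to AGEs (limma's adjusted p = 0.99). Scaling moved the median of all genes by less than 0.1. The unknown depth limits what can be said of SPG7, at 1.83 to 2.56 FPKM.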
